A study of Mus musculus with 2 samples.

Results

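The genes described here are those of the mouse major histocompatibility complex (MHC) and the antigen presentation machinery, chosen by name from the GENCODE M21 annotation of the mm10 genome. They are the protein-coding genes whose symbol starts with H2-, plus B2m, Tap1, Tap2, Tapbp, Cd74, Ciita and Nlrc5, which makes 41 members of 21938 protein-coding genes. Of these, 29 belong to class I and 11 to class II, and H2-Ke6, which carries the prefix through its place in the complex and encodes a hydroxysteroid dehydrogenase, was kept apart. The samples were left cerebral cortex from female B6CASTF1/J mice aged 18 to 20 months, an F1 cross of C57BL/6J with CAST. Open chromatin was mapped by DNase-seq: the nuclease DNase I cuts DNA that is not wrapped in nucleosomes, and the cut ends are sequenced. There was 1 group of 2 libraries, called library 1 and library 2 after their biological replicate numbers. They come from separate tissue samples that share a donor identifier, and nothing in the labels says that they are separate animals, so the spread between them may be technical. The design holds no comparison between conditions and no test was made; values are given per library, and means with their SD over both (n = 2).

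MHC class I molecules consist of a heavy chain and the light chain beta-2-microglobulin, sit on nearly all nucleated cells and show fragments of cytosolic proteins to CD8 T cells. MHC class II molecules are pairs of an alpha and a beta chain, are made mainly by professional antigen presenting cells, and show fragments of engulfed proteins to CD4 T cells. Their promoters share a module of adjoining boxes, the X box bound by RFX and CREB family factors and the Y box (CCAAT) bound by NF-Y, on which the coactivators NLRC5 (class I) and CIITA (class II) assemble. In the healthy brain, microglia and macrophages at its borders are the usual source of class II, and neurons are known for low class I levels.

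The sequences below show promoter peaks of both classical class I genes, of the partners B2m, Nlrc5 and Tap1 and of 5 class II chains, so that the footprints described further on can be read against the letters of these boxes. Tapbp and H2-DMa, although open, are not shown, because the peak that gives their promoter signal does not lie at the RefSeq start. Tap2, also open, was not matched in the RefSeq table. It is not shown because no library 1 peak lay within 100 bases of the GENCODE M21 start of a transcript with a start codon. A footprint is a short stretch inside open chromatin where the authors found fewer cuts than around it. Each sequence is the library 1 peak from the mm10 assembly, on the gene's own strand from 5′ to 3′ and cut at most 30 bases after the start of transcription given by RefSeq, or by GENCODE M21 for Nlrc5 and H2-Ab1, which were not matched in the RefSeq table. H2-Ab1 was kept as an exception to the rule used for Tapbp and H2-DMa. Both the peak at the start of its protein-coding transcripts and a stronger upstream peak are given. That upstream peak lies at the start of a transcript without a start codon. Capitals mark bases inside footprints of both libraries.
B2m (chr2:122147561-122147716, plus strand): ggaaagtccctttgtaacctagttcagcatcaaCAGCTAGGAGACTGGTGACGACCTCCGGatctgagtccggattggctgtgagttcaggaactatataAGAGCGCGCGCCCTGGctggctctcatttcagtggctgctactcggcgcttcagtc
Nlrc5 (chr8:94434221-94434420, plus strand): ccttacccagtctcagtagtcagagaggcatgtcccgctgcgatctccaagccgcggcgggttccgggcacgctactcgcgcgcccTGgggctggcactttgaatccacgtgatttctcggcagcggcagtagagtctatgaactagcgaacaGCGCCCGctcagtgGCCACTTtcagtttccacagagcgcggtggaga
H2-K1 (chr17:34000304-34000460, minus strand): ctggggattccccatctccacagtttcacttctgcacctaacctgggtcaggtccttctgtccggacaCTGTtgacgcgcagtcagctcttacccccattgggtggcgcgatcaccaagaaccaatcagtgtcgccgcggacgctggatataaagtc
H2-D1 (chr17:35262921-35263100, plus strand): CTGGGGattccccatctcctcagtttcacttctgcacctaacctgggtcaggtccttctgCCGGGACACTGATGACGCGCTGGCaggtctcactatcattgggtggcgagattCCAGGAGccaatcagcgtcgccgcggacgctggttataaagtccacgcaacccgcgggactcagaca
Tap1 (chr17:34187341-34187520, plus strand): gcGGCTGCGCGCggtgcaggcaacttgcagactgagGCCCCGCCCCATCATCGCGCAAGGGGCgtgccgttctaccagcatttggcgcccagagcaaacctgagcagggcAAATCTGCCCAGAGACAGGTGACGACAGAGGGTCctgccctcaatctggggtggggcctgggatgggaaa
H2-DMb1 (chr17:34153001-34153200, plus strand): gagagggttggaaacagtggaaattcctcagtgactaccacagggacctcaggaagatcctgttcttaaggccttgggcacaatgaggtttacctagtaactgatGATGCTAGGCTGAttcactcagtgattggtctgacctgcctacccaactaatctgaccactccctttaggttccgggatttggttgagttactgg
H2-Ob (chr17:34238721-34238920, plus strand): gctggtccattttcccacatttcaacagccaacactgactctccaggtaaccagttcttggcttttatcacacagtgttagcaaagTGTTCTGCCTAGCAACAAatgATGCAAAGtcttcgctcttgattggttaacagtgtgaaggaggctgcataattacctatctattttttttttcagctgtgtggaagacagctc
H2-Ab1 upstream (chr17:34257681-34257860, plus strand): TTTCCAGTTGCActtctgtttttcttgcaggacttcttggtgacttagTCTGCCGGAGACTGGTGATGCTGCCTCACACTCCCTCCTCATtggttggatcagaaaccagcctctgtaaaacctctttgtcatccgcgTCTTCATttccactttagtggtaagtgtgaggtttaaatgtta
H2-Ab1 (chr17:34263061-34263238, plus strand): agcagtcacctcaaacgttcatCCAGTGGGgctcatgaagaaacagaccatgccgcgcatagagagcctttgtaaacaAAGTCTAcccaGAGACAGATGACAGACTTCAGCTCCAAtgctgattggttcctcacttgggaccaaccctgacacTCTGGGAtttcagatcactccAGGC
H2-Aa (chr17:34287794-34287980, minus strand): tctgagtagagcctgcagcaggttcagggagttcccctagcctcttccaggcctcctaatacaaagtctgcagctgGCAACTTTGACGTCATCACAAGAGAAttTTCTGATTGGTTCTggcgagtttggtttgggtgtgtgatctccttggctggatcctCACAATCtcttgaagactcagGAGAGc
H2-Eb1 (chr17:34305681-34305896, plus strand): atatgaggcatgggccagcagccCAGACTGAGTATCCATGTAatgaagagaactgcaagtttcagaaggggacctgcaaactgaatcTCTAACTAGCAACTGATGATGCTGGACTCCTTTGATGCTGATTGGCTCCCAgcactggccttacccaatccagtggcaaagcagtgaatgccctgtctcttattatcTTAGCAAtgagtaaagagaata

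Each library gave its own peak list, with 132054 peaks in library 1 and 139799 in library 2, a median width of 200 bases in both and a median signal of 0.64 and 0.641. The signal is the authors' value per peak and has no stated unit or normalization, and the read depth is unknown. A gene was called open, or said to have a promoter peak, where a peak reached into the 500 bases on either side of an annotated start, and its promoter signal was that of the strongest such peak, or 0. As markers of the tissue, all 6 neuron genes on a list of markers were open in library 1 and in library 2, as were 4 of 5 astrocyte, 3 of 5 oligodendrocyte and 1 of 5 endothelial genes (3 of 5 in library 2), against 63.6% of all protein-coding genes. In bulk tissue, fewer cells of a type and less open chromatin per cell cannot be told apart.

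Class I genes were split between an open set and a closed set. Both libraries listed a promoter peak for 11 of 29 class I members (37.9%), against 63.6% of all protein-coding genes. By library the class I count was 11 in library 1, against 64.5% of all, and 15 in library 2, against 66.5%. In the authors' shorter peak lists it was again 11 in both, against 59.5%. The 11 were both classical genes, all 5 partners, 2 of 6 H2-Q genes, 1 of 4 H2-T genes and 1 of 12 H2-M genes. Another 4 had a peak in library 2 alone, where 2.84% of all genes fell, and 14 had none in either, against 32.6% of all genes. Among class II members 6 of 11 (54.5%) were open in each library, and 5 had no peak in either. In the shorter lists 5 were open, against the same 59.5%. All 6 were chains, and neither partner, Cd74 or Ciita, had a promoter peak.

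**Figure D1:**
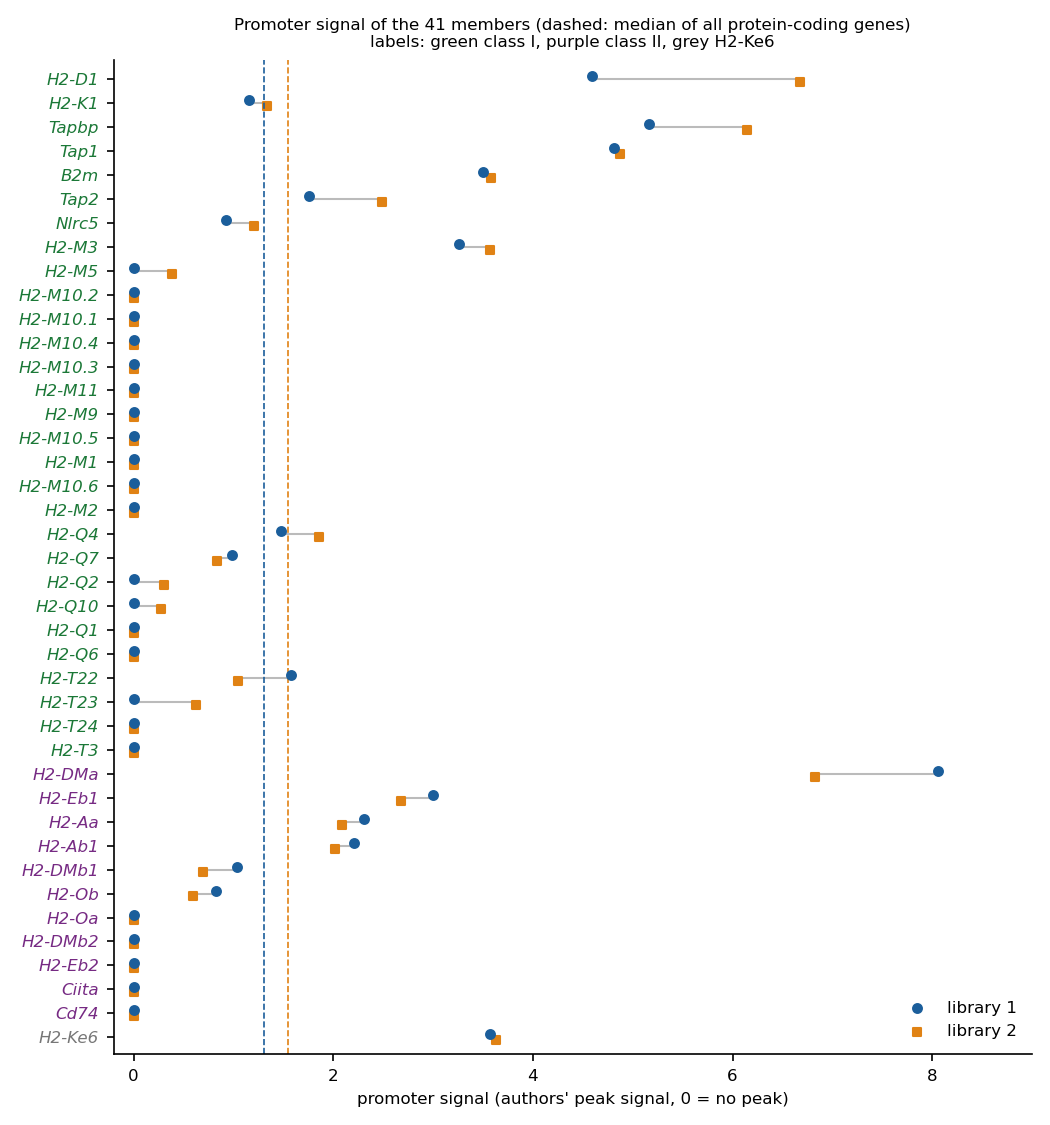
Promoter signal of each of the 41 members in library 1 (circles) and library 2 (squares), with 0 for no peak; dashed lines are the medians of all protein-coding genes, 1.31 in library 1 and 1.55 in library 2. H2-D1, Tapbp, Tap1, B2m and Tap2 lie right of both lines and most H2-M genes at 0, and every open class II gene has its circle right of its square.

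Among the classical heavy chains, which present peptides to CD8 T cells, H2-D1 had a promoter signal of 4.59 in library 1 and 6.68 in library 2, higher than 80.3% and 92.4% of all protein-coding genes. H2-K1 had 1.16 and 1.34, higher than 48.2% and 47.9%. H2-D1 (mean 5.64 ± 1.48, SD, n = 2) had the higher value of the pair in each library, against H2-K1 (1.25 ± 0.132). Each gene has 1 value per library. Both peaks are made of nearly the same letters. Over 156 aligned bases the printed H2-D1 and H2-K1 sequences matched at 139 (89.1%), with 1 gap base. The H2-D1 peak starts 173 bases before the RefSeq start, while GENCODE M21 places the 5′ end of this gene 281 bases before the peak's midpoint.

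The partners of class I were open in both libraries without exception. B2m, the light chain of every class I molecule, had 3.50 in library 1 and 3.58 in library 2, a difference of -0.03 on the log2 scale (library 1 over library 2). Tapbp encodes tapasin, which holds empty class I molecules at the peptide transporter, and had 5.16 and 6.15. Its strongest promoter peak also lies within 500 bases of a start of Zbtb22, and the peak's gene of origin cannot be told apart. The Zbtb22 start lies slightly nearer than any Tapbp start, 127 bases from the peak's midpoint in library 1 and 120 in library 2. Tap1 and Tap2 encode the subunits of that transporter. Tap1 had 4.81 and 4.87, in a peak shared with Psmb9, an immunoproteasome subunit transcribed the other way, whose start lies nearer (66 bases from the peak's midpoint). Tap2 had 1.76 and 2.49, in a peak centred 954 and 964 bases inside the gene record, beside an internal start. Nlrc5, the class I coactivator, had 0.926 and 1.21, the lowest of the partners in both libraries when each is taken at its strongest promoter peak.

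Most nonclassical class I genes were closed. H2-M3, which presents N-formylated bacterial peptides, had the strongest signal among them, 3.26 in library 1 and 3.57 in library 2. H2-Q4 had 1.48 and 1.86. H2-T22, a ligand of certain gamma-delta T cell receptors, had 1.58 and 1.05, near a start of Gm6034 as well. H2-Q7, which encodes a Qa-2 antigen, had 0.987 and 0.839. These 4 genes had values higher than 42.2% to 69.2% of all protein-coding genes.

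Members with a peak in library 2 alone had weak ones: H2-T23, the Qa-1 ligand of the NKG2A receptor, had 0.629, H2-M5 0.388, H2-Q2 0.302 and H2-Q10, a secreted class I molecule of the liver, 0.271. The H2-M10 genes, known from vomeronasal neurons, had none, and neither library listed any base in an H2-M10 promoter window at a false discovery rate below 0.05. H2-T3, the thymus leukaemia antigen of gut epithelium, also had none. Their signal of 0 means that no peak was listed, not that no cut was made.

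Among class II chains, the classical ones stood together. H2-Eb1, the beta chain of the I-E molecule, had 3.0 in library 1 and 2.68 in library 2. H2-Aa, the alpha chain of I-A, had 2.31 and 2.09. H2-Ab1, its beta chain, had 2.21 and 2.02 at the upstream peak, and 1.44 and 1.23 at the start of its protein-coding transcripts. In each library the order was H2-Eb1, H2-Aa, H2-Ab1, and H2-Aa (2.20 ± 0.158, SD, n = 2) and H2-Ab1 (2.11 ± 0.138) differed by less than that spread. H2-Eb2, a further beta chain of the same family, had no promoter peak.

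The nonclassical class II chains load and edit peptides in the endosome. H2-DMa, the alpha chain of the peptide exchange factor DM, had the highest value of all members, 8.06 in library 1 and 6.83 in library 2. That peak lies at the 5′ end of a long M21 gene record that runs through Brd2, a broadly expressed chromatin reader. A separate peak of 7.20 and 5.43 lay 15960 and 15870 bases further on, 127 and 217 bases from an internal H2-DMa start. Taken at that separate peak, H2-DMa stood below H2-D1 (6.68) and Tapbp (6.15) in library 2. Its partner H2-DMb1 had 1.04 and 0.697, and H2-DMb2, the other DM beta gene, had no promoter peak. H2-Ob, the beta chain of the DM inhibitor DO, had 0.824 and 0.592, the lowest of the open class II genes, and its alpha chain H2-Oa had none.

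Cd74 encodes the invariant chain, which fills the groove of new class II molecules, and Ciita the class II coactivator. Neither had a peak within 500 bases of any start, a footprint there, or any base listed there at a false discovery rate below 0.05, in either library. Inside Cd74, intronic peaks lay 1183 and 1182 bases from the 5′ end, with 0.824 in library 1 and 1.04 in library 2, and 2873 and 2863 bases from it, with 1.82 and 1.77. Inside Ciita, shared intronic peaks had 1.35 and 1.87 (41342 bases from the 5′ end in both) and 1.03 and 1.43 (42950 and 42962 bases). Within 500 bases of the 5′ end, 93.3% of the 31-base words of Cd74 and 98.2% of those of Ciita occur at a single place in the assembly, against 100% for the median gene; the other starts of Ciita were not searched for repeats.

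All 6 open class II promoters had a higher signal in library 1 than in library 2, by a median of 0.20 on the log2 scale (SD 0.19 over the genes). Only 2 of the 11 open class I promoters did (H2-Q7 and H2-T22), with a median of -0.22 (SD 0.33). Of all protein-coding genes open in both libraries, 31.9% were higher in library 1, with a median of -0.11. Over all pairs of matched peaks around the 3 classical class II genes H2-Aa, H2-Ab1 and H2-Eb1, 9 of 11 were higher in library 1, against 40.6% of the 99347 matched pairs of the genome; this trio was chosen after its values were seen. Around all class II members 18 of 35 pairs were, and around class I members 12 of 50. Pairs around microglia marker genes were higher in library 1 in 21 of 43 cases, with a median of -0.03, against a median of -0.09 over all matched pairs. The counts were 12 of 22 for endothelial markers (median 0.04), 4 of 10 for border macrophage markers (-0.07), 30 of 106 for neuron markers (-0.17) and 10 of 32 for markers of other antigen presenting and lymphoid cells (-0.32). Whether the makeup of the tissue samples moves with these ratios was not tested, and with 1 library on either side and no stated normalization the ratios carry no error of their own.

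Footprints followed the peaks. Of the peaks around members, 92 of 106 in library 1 and 99 of 116 in library 2 held at least 1 footprint, against 76.1% and 78.9% of all peaks. The windows of 11 class I and 6 class II members held a footprint in both libraries, against 61.5% of all protein-coding genes, and these were the genes that were open in both. Bases at a false discovery rate below 0.05 were listed in the windows of the same number, 11 and 6, against 64.4% of all. At the stricter false discovery rate of 0.001 the class I count was 11 and the class II count 5, against 60.3% of all genes, because H2-DMb1 had 123 such bases in library 1 and 0 in library 2. Within the peaks, H2-Eb1 had 3 footprints in library 1 and 4 in library 2, H2-Aa 4 and 5, B2m 3 and 2, and H2-K1 3 in each.

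**Figure D2:**
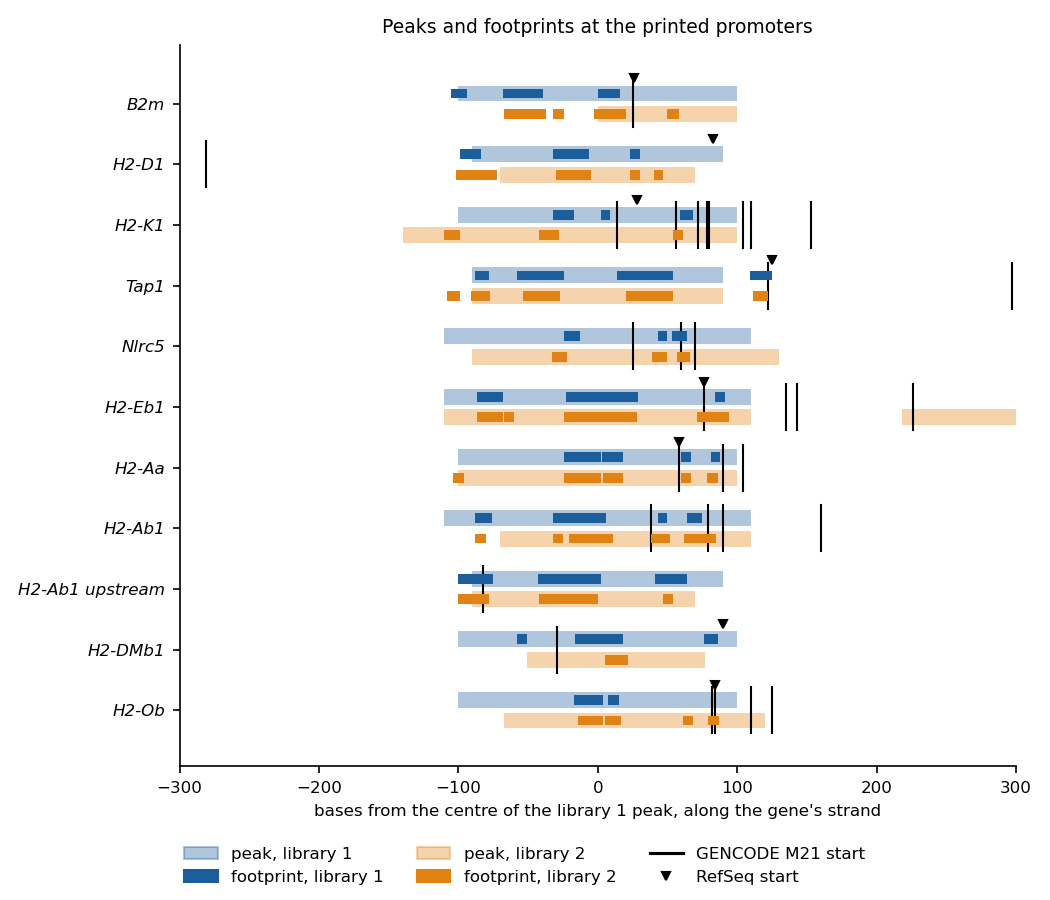
Peaks (pale bars) and footprints (dark bars) of library 1 (upper row of each gene) and library 2 (lower row) at the 11 printed promoters, by distance in bases from the centre of the library 1 peak along the gene's strand; black lines are GENCODE M21 starts and triangles RefSeq starts. In H2-Eb1, H2-Aa, both H2-Ab1 peaks and H2-Ob, footprints of both libraries lie at the peak's centre, and in B2m a shared footprint lies outside the shorter library 2 peak.

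Footprints covered the X and Y box letters in some of the printed promoters and not in others. Of the 9 printed sequences with a CCAAT box, a box lay wholly within footprints of both libraries in H2-Aa and H2-Eb1 and partly in both H2-Ab1 peaks. In B2m, H2-K1, H2-D1, H2-DMb1 and H2-Ob no CCAAT base lay in footprints of both libraries, and neither did any base of the second CCAAT box in H2-Eb1 and in the coding-start peak of H2-Ab1. TGACG lay wholly within them in H2-Aa, B2m, Tap1 and H2-D1 and outside them in H2-K1. In H2-Eb1 a footprint stretch of 51 bases, the longest of those printed, ran over an RFX core (GCAACNG, bases 96 to 102 of the printed sequence) and a CCAAT box on the other strand (bases 128 to 132). In H2-Aa a stretch of 26 bases covered the CRE core TGACG on both strands (bases 84 to 88 and 87 to 91), and the next stretch, of 14 bases, the CCAAT box (bases 110 to 114). The upstream H2-Ab1 peak had a stretch of 42 bases, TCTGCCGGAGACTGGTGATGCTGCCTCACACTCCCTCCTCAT, and the B2m peak 28 bases with TGACG inside, CAGCTAGGAGACTGGTGACGACCTCCGG. In Tap1 the TGACG at bases 130 to 134 lay in a stretch of 34 bases, and in H2-D1 that at bases 73 to 77 in a stretch of 24. H2-K1 holds TGACG at the same bases 73 to 77, but there only 4 bases, just before it, lay in footprints of both libraries. A library 1 footprint ran over that TGACG, and no library 2 footprint overlapped it. H2-Ob shared the stretch TGTTCTGCCTAGCAACAA between the libraries and H2-DMb1 the stretch GATGCTAGGCTGA.

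After these stretches had been seen, the gene's strand was searched for the letters TGANG and, 10 to 30 bases after their end, the letters ATTGG, which read CCAAT on the other strand. The pair was found in 8 of the 11 printed sequences, with 17 to 21 bases between ATTGG and the nearest TGANG before it: 17 in H2-Ob, 19 in H2-Eb1, 20 in B2m, H2-K1, H2-D1, H2-DMb1 and the upstream H2-Ab1 peak, and 21 in H2-Aa. In the 300 bases from 250 before to 50 after the GENCODE M21 5′ end, 2.59% of all protein-coding promoters hold it, as do 5 of the 11 open class I promoters (B2m, H2-K1, H2-Q4, H2-Q7 and H2-M3) and 3 of the 6 open class II ones (H2-Ob, H2-Aa and H2-Eb1). The window of H2-D1 misses its peak. Those of H2-DMb1 and H2-Ab1 end before the ATTGG of the pairs found in their printed sequences, so these genes are not counted. Among closed members, H2-Q6 and H2-Eb2 hold it too, with no footprint in either library. A match is a description of letters and not of a bound factor.

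Consensus letters were searched on both strands of the same windows. There are 29 class I and 11 class II promoters, so the counts below cannot be compared between the classes directly. The interferon response element, GAAA followed by any 2 bases and GAAA again, was in 5 of 29 class I promoters (B2m, Nlrc5, H2-Q2, H2-T23 and H2-T22) and in 0 of 11 class II promoters, against 3.55% of all. The element of Nlrc5, 38 to 47 bases into the gene, overlapped a footprint and the peak in both libraries, while that of B2m, which starts 138 bases upstream, overlapped a footprint in library 1 alone and no peak. The kappa B consensus was in 8 class I and 2 class II promoters, against 9.09% of all. Here 6 of the 8 class I genes were open ones: B2m, H2-K1, H2-Q4, H2-Q7, H2-T22 and H2-M3. The RFX core GCAACNG was in 1 class I and 4 class II promoters, against 12.2%, and CCAAT in 21 and 7, against 39%. TGACG was in 12 and 2, against 23.1%, and TGACG beside CCAAT in any orientation with 10 to 30 bases between in 9 and 2, against 3.09%. The ETS core GAGGAA was in 13 and 2, against 27.7%. The class II genes with TGACG, alone or beside CCAAT, were H2-DMa and H2-Aa. The H2-DMa window, also counted for CCAAT, lies at the 5′ end of its long gene record, which runs through Brd2. Members of 1 family descend from common ancestors, so these counts are not independent; 4 of the 9 class I genes with TGACG beside CCAAT are H2-M10 genes with no peak.

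Around the genes, counting the gene body and 10 kb on either side, class I members had 58 distinct peaks in library 1 and 67 in library 2, which is 7.57 and 8.75 per 100 kb. Class II members had 41 and 43, or 13.5 and 14.2 per 100 kb. Around all protein-coding genes there were 7.13 and 7.67 per 100 kb. The class II density includes the peaks of Brd2 beside H2-DMa, and 11 of 41 and 12 of 43 peaks lay nearest to a start of a gene that is no member. Of all peaks around members, 88.7% in library 1 and 81% in library 2 were overlapped by a peak of the other library, against 77.8% and 73.2% of all peaks. The 12 and 22 unshared ones were weak, with median signals of 0.483 and 0.395.

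Several of the stronger peaks lay away from starts. Upstream of H2-D1 a peak centred 4389 bases before the 5′ end had 3.55 in library 1 and 3.75 in library 2, and another beyond its 3′ end had 2.29 and 3.02. H2-Oa, with no promoter peak, had 2.65 and 2.76 at 9341 bases from its 5′ end, in an intron of another gene record. Upstream of H2-Aa a peak 3928 and 3938 bases from the 5′ end had 1.39 and 2.23, the opposite order to its promoter. Inside Nlrc5 a pair of intronic peaks had 1.67 and 1.47, and 1.17 and 1.70. Of 29 class I members, 6 had no peak within 10 kb in either library, namely 5 H2-M genes and H2-Q1. Of all 21938 genes, 3577 had none in library 1 and 3426 in library 2, a somewhat lower share. No class II member was without such a peak. From H2-M1 the nearest peak lay 53.9 kb away in library 1 and 54 kb in library 2.

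**Figure D3:**
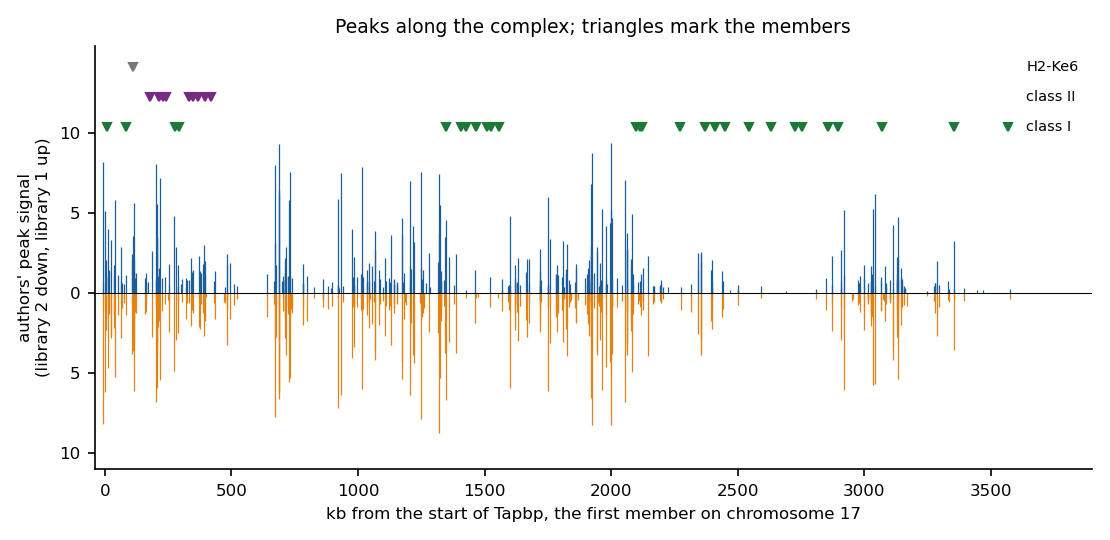
Peaks along chromosome 17 from Tapbp to the last H2-M gene, by distance in kb from the start of Tapbp, with library 1 drawn upwards and library 2 downwards; triangles mark the 37 members on this chromosome by class. The span of 3588 kb with its 10 kb margins holds 366 peaks in library 1 and 388 in library 2, and few stand from H2-M10.4 to H2-M1.

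Class I genes are close copies of each other, which matters for where reads can be placed. Of 31-base words within 500 bases of the 5′ end, the median class I member had 89.3% that occur at a single place in the assembly and the median class II member 98.2%, while the median gene had 100%. Under 90% were unique in 17 of 29 class I and 1 of 11 class II members, against 18.2% of all genes. Among members with at least 90%, 6 of 12 class I and 5 of 10 class II genes were open in both libraries, against 71.7% of all such genes. Among those with less, 5 of 17 class I genes and H2-DMb1 had one, against 27.4%. H2-Q6 had the lowest share, 23.5%, and no promoter peak, and its neighbour H2-Q7, with 35.5%, had one; reads from near-identical copies may be assigned to either or dropped, and the sources used here do not say how the authors placed them. The values of H2-Q, H2-T, H2-K1 and H2-D1 are therefore uncertain to that extent. So are those of H2-DMb1 (70.1%) and of H2-M genes such as H2-M10.5 (70%) and H2-M10.3 (72%). Differences between the C57BL/6J and CAST copies of these genes are uncertain too. Within the promoter peaks themselves, 100% of the words of H2-Q4 and H2-DMb1 were unique in both libraries. For H2-D1 it was 93.3% in library 1 and 90.9% in library 2, and for H2-K1 94.1% and 87.1%. H2-T22 had 78.7% and 70%, and H2-Q7 45.3% and 40.5%.

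**Figure D4:**
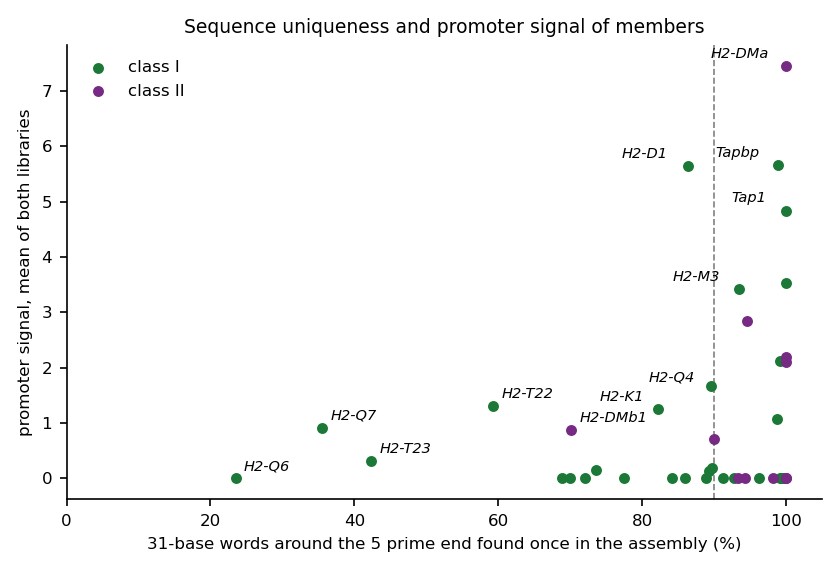
Mean promoter signal over both libraries (vertical axis) against the percentage of 31-base words around the 5′ end that occur at a single place in the assembly (horizontal axis), for class I (green) and class II (purple) members; the dashed line is at 90%. Genes at 0 stand at both ends of the scale, from H2-Q6 with 23.5% to members near 100%.

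Of 12 measured processing genes, which work with the members, 11 were open in both libraries, against 63.6% of all protein-coding genes. They include Psmb8 (2.91 in library 1 and 2.95 in library 2) and Psmb10 (2.88 and 3.22) of the immunoproteasome, and Calr (10.3 and 8.39) and Canx (7.96 and 7.72), chaperones of class I assembly. Ctss, a protease that degrades the invariant chain, had none. Of 14 regulators, 13 were open, against the same 63.6%. The RFX subunits Rfx5, Rfxap and Rfxank had 4.42, 5.06 and 7.60 in library 1 and 4.25, 5.69 and 5.93 in library 2, so the genes of the X box factors were open where Ciita was not. Irf1, an interferon response factor, had 3.01 and 3.45, and Irf8, a factor of microglia and other myeloid cells, 1.57 and 1.58. Spi1, the myeloid factor PU.1, had none.

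In interferon gamma signalling 5 of 6 genes were open, where 63.6% of all protein-coding genes were. The receptor chain Ifngr1 had 4.36 in library 1 and 4.49 in library 2, and Ifngr2 0.953 and 0.956. The gene of the ligand itself, Ifng, had no promoter peak. Of 5 class I-like genes outside the complex 4 were open, all weakly, from 0.640 to 0.878 in library 1 and from 0.419 to 0.882 in library 2. Among them, Fcgrt, the receptor that recycles IgG, had 0.749 and 0.777. The list medians, averaged over both libraries, were 4.33 ± 0.071 for processing and 3.98 ± 0.0976 for regulators (SD, n = 2). Class I members had 0.136 ± 0.192 and class II members 0.708 ± 0.164, and all protein-coding genes 1.43 ± 0.166.

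**Figure D5:**
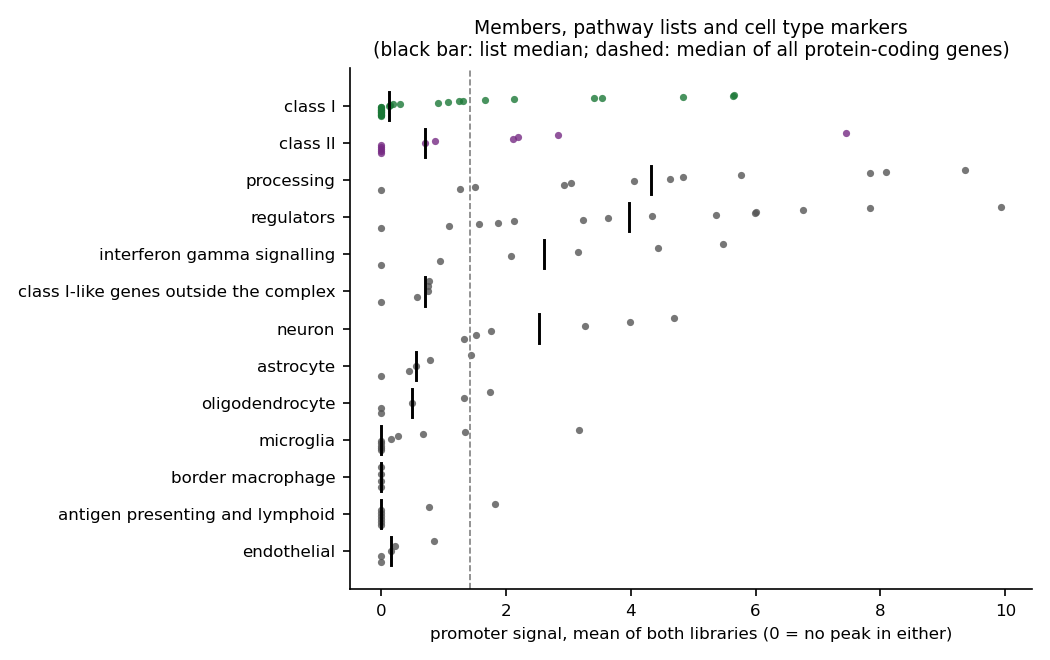
Promoter signal of each gene, as the mean of both libraries, for class I and class II members, the pathway lists and the cell type marker lists; black bars are list medians averaged over the libraries and the dashed line is that of all protein-coding genes, 1.43. Processing genes and regulators lie mostly right of the line, and microglia, border macrophage and lymphoid markers mostly at 0.

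Markers of the cells that usually carry class II were largely without promoter peaks. Among microglia genes, Aif1 (1.45 in library 1 and 1.22 in library 2) and Trem2 (0.715 and 0.629) had one in both libraries. The defining genes P2ry12, Csf1r, C1qa, Siglech and Itgam stood at 0 in both, Tmem119 had 0.558 in library 1 alone and Cx3cr1 0.333 in library 2 alone. None of the 4 border macrophage markers, Mrc1, Lyve1, Pf4 and Cd163, had a promoter peak in either library. Among genes of other antigen presenting and lymphoid cells, Zbtb46 (1.49 and 2.17) and Flt3 (0.572 and 0.968) had one, and Ms4a1, Cd79a, Cd3e, Itgax and Xcr1 stood at 0. H2-Eb1, H2-Aa and H2-Ab1 had a higher promoter signal than Aif1 and Trem2 in both libraries. Which cells carry the open class II promoters was not tested.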

How the data were processed

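DNase-seq peaks, footprints and per-base false discovery rates of 2 libraries were used. Per the deposited readme files, the files of a library rest on its own mm10 alignments, and the sources used here name neither aligner nor callers. Peak signal was deposited by the authors with no normalization stated, and the longer of 2 deposited peak lists was used. The deposited per-base tables hold q-values (false discovery rates) under 0.05 only, and the deposited footprints carry the q-value 0.01 in every line. Depth is unknown, and its limits on precision cannot be given.

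Starts came from GENCODE M21 and, for printed sequences, from RefSeq (GRCm38.p6). A promoter peak overlapped 500 bases on either side of a start by at least 1 base. Uniqueness was counted for 31-base words over chromosomes 1 to 19, X and Y, on both strands. Matched pairs were peaks that are each other's strongest overlap. Gapped local alignment compared H2-D1 with H2-K1. Named genes were the classical, partner and class II members, and nonclassical members with a promoter peak. Members, lists and motifs were chosen with earlier results of these data known. Some marker genes are not reported here. Ifi30 was not matched to a protein-coding M21 gene. Overlap, motif and word searches were tested on simulated data. Python 3.11.15, numpy 2.4.6, pandas 2.3.3, numba 0.67.0, Biopython 1.88 and matplotlib 3.10.9 were used.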

Additional observations from a re-analysis of the deposited data

How the results depend on the processing

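Of 56 alternative values for 11 results, 47 stayed within 1.5 times a count or within 1 SD of a value, and none reversed. With members of at least 90% unique words only, an alternative chosen after seeing the data, the class I count with a promoter peak in both libraries was 6, against 11, because fewer genes were counted. The class II median promoter signal was 0.412 with the shorter peak lists and 0.991 with a window of 2000 bases, against 0.708. The mean number of distinct peaks over both libraries was 25 around class I with no flank and 168 with 50 kb, against 62.5, and 26.5 and 83.5 around class II, against 42, as the windows shrink or grow. The share of member peaks shared between the libraries was 90.6% with the shorter lists and 78.5% with an overlap of 50% of both peaks, against 84.9%. Counting only peaks nearest to a start of the member, also chosen after seeing the data, took Tap1 from the class I count, which was then 10, and left the class II count at 6. Tapbp stayed in the class I count through weaker peaks, the strongest with 2.08 in library 1 and 2.33 in library 2. Taking either library alone gave class I counts of 11 to 15 and class II counts of 6 in each. No paired analysis was possible because there is 1 group and no comparison between groups. With 2 libraries that share a donor identifier, of unknown depth, a missing peak may be a weak one that was not called.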
